A study of Homo sapiens with 6 samples.

Results

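Processed pseudogenes were compared between LN229 cells labelled as overexpressing HSD52 and LN229 control cells. The genes described are the rows of the deposited count table typed as processed pseudogene or transcribed processed pseudogene whose counts, summed over all 6 libraries, came to 60 or more. Of 58735 rows in the table, 10672 had one of these types, and 486 of them met the count limit: 407 processed pseudogenes and 79 transcribed processed pseudogenes. A further 3176 rows had between 1 and 59 counts, and 7010 had no count in any library. The limit was set on the sum of both groups, so a gene that is high in 1 group alone can pass it through that group, and the counts of calls below describe the genes that passed. Summed counts of the 486 ranged from 60 to 55001 with a median of 211. Of these genes, 297 carry a name made of a protein-coding gene's symbol followed by P and a number. That protein-coding gene is called the parent below, and the 297 pseudogenes had 221 different parents.

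A processed pseudogene arises when a spliced messenger RNA is copied into DNA by the reverse transcriptase of LINE-1 elements and inserted elsewhere in the genome. The copy therefore usually lacks introns and its parent's promoter, and is often transcribed only when it lies near or inside another transcription unit. Genes with abundant messenger RNAs, such as those for ribosomal proteins, have left many such copies. Because a young copy is nearly identical to its parent, short reads may be hard to assign to one or the other.

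LN229 is an established human glioblastoma cell line, and HSD52 is a gene that the table types as a processed transcript, a class without a protein product. Both groups are of this line: 3 libraries are labelled with HSD52 overexpression as genotype (HSD52_OE), and 3 are labelled as wild type (control). The labels do not state an empty vector for the control, how HSD52 was introduced, the number of clones, or separate cultures, so p-values reflect library-to-library spread within each group, part of which may be technical. RNA was selected by its poly-A tail and primed with random hexamers, and whether reads were counted by strand is not stated in the sources used.

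Library totals ran from 17777157 to 18917790 counts, and 1 CPM (the unit of level used here, a count relative to the TMM-scaled library size) corresponded to between 17.1 and 19.7 counts in a library. HSD52 itself had 11, 7 and 12 counts in control and 1252, 1336 and 1327 counts in HSD52_OE. Of 8 glioma markers fixed as a check of the line, none was at 0 and their summed level was 4300 to 5674 CPM in control and 4211 to 4224 CPM in HSD52_OE libraries. Of 12 markers of other cell types, 11 averaged under 1 CPM over the 6 libraries and 4 had no count. Their summed level was 15.5 to 19.3 CPM in control and 9.20 to 9.73 CPM in HSD52_OE libraries, most of it from SNAP25. HBB, a hemoglobin gene, went the other way, with no count in control and 29, 33 and 27 counts in HSD52_OE. The part of these shifts in the results below was not tested.

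The sequences below show what separates these genes from their parents. Each line gives 120 bases inside the parent's coding region, 5′ to 3′ on the transcribed strand, from GENCODE release 29 transcripts on hg38, and capitals mark the bases in which the pseudogene differs from its parent. For KLF2P1, the most diverged of those shown, the stretch with the fewest differences is printed, and for the others the ungapped stretch with the most. The elongation factor gene EEF1A1 (chr6:73519228-73519455, minus strand, 1 exon junction inside the stretch) and EEF1A1P5 (chr9:133019691-133019810, plus strand, no junction) differ here by 1 base.
EEF1A1: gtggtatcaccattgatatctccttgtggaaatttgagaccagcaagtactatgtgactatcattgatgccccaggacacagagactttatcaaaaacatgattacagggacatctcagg
EEF1A1P5: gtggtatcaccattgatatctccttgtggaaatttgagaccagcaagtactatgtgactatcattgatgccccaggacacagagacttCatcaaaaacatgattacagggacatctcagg

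Further pairs show copies with more differences, and each parent stretch here spans 1 exon junction. RPL37AP1 (chr20:44466588-44466707, minus strand) fell further than its parent RPL37A (chr2:216499952-216501380, plus strand), RPL18P13 (chr16:76235286-76235405, minus strand) rose while its parent RPL18 (chr19:48616163-48616805, minus strand) fell, and KLF2P1 (chr2:130036967-130037086, plus strand) was counted in HSD52_OE libraries alone, unlike KLF2 (chr19:16324933-16325269, plus strand).
RPL37A: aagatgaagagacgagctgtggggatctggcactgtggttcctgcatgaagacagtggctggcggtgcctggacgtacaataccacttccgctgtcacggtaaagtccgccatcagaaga
RPL37AP1: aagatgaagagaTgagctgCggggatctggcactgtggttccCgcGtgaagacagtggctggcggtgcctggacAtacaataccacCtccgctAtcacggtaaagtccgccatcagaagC
RPL18: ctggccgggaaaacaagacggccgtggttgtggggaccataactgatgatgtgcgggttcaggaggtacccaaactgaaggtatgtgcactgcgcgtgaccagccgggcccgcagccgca
RPL18P13: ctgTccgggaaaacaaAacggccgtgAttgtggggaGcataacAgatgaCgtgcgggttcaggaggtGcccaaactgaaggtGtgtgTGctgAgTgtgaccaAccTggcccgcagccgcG
KLF2: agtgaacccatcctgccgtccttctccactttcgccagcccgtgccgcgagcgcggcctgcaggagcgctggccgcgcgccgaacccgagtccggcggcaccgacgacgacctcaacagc
KLF2P1: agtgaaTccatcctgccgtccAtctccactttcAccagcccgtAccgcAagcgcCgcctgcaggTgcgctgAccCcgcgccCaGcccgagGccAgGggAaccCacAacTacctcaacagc

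Across all pairs with an alignment (295 of 297, BLAST), the identity of pseudogene and parent transcript had a median of 97.5% and ranged from 68.0% to 100%. As a measure of how well reads can be told apart, each pseudogene transcript was cut into all its 50-base stretches, and a stretch was called unique where no other GENCODE transcript contained it. A median of 60.5% of stretches was unique. In 22 pseudogenes no stretch was unique, and in 51 every stretch was. The measure covers annotated transcripts, not the whole genome, and how reads with several equal alignments were counted is not given in the sources used here. Levels of pseudogenes that share most of their sequence are therefore uncertain.

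Of the 486 pseudogenes, 475 had counts high enough for the test and the other 11 did not. At an adjusted p under 0.05 in edgeR's quasi-likelihood test, with adjustment over all 16322 genes tested, 85 were higher in HSD52_OE and 86 were lower. That is 17.9% and 18.1% of the 475, against 25.0% higher and 25.6% lower among all genes tested. The groups did not overlap for 189 of the 475 (39.8%), against 58.9% of all genes tested. The median log2 fold change (HSD52_OE over control) was −0.07, with quartiles of −0.48 and 0.41, beside a median of 0.01 over all genes tested. Scaling by library totals alone moved the median of all genes to 0.13, the median of the pseudogenes to 0.05 and the calls to 101 higher and 54 lower. Without HSD52_OE replicate 1, 64 pseudogenes were higher and 56 lower.

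As a share of all counts, the 486 pseudogenes took 0.427%, 0.493% and 0.527% in control and 0.488%, 0.496% and 0.489% in HSD52_OE. The control libraries spread around the HSD52_OE values, and the groups overlapped (exact 2-sided permutation p = 0.9, smallest possible 0.1). Their 221 parents took between 8.87% and 10.4% of counts in control and between 9.32% and 9.58% in HSD52_OE libraries, again overlapping (exact permutation p = 0.7). The 79 transcribed processed pseudogenes took 0.0519%, 0.0539% and 0.0573% in control and 0.0616%, 0.0606% and 0.0595% in HSD52_OE libraries. Every HSD52_OE library was above every control library for that class (exact permutation p = 0.1, the smallest that 3 against 3 can give).

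Rows below the count limit were set beside these. Among those 10186 rows, 1041, 1216 and 1133 had at least 1 count in control and 1732, 1768 and 1694 in HSD52_OE. Their summed counts were 2735, 3355 and 3308 in control and 5431, 5792 and 5468 in HSD52_OE, a ratio of means of 1.78 (exact permutation p = 0.1). The groups did not overlap in either measure. By the number of detected rows, the ratio of means for these pseudogene rows was 1.53. Detected rows were also more numerous in HSD52_OE for the whole table (ratio 1.15), lincRNA genes (1.30) and protein-coding genes (1.04). The part of this table-wide difference in the pseudogenes' values was not tested.

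The 10 pseudogenes with the most counts were near-copies of highly expressed translation genes, apart from ANXA2P2, a copy of the annexin gene ANXA2. RPS2P5 (chr12:118246084-118246962), inside an intron of TAOK3 on the opposite strand, had the highest summed count. Its counts were 7659, 12246 and 9364 in control and 8355, 8185 and 9192 in HSD52_OE libraries. The groups overlapped, and the log2 fold change of −0.31 ± 0.13 (SE) missed the threshold (edgeR adjusted p = 0.0558). That adjusted p ranged from 0.00133 to 0.306 over the alternatives, and the gene passed under 4 of them, among them leaving out control replicate 1.

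EEF1A1P5 (ENSG00000196205, chr9:133019486-133020874), a copy of the gene for the elongation factor that brings aminoacyl-tRNA to the ribosome, stood highest among those that rose in this group. It had 2902, 3079 and 3548 counts in control and 5461, 6067 and 5647 in HSD52_OE libraries, with no overlap. Its level went from 181 ± 14.5 to 299 ± 15.0 CPM (SD, n = 3), a log2 fold change of 0.73 ± 0.09 (edgeR adjusted p = 8.97e-06). EEF1A1 itself had 8471 ± 533 CPM in control and 8556 ± 181 CPM in HSD52_OE, a log2 fold change of 0.01 ± 0.10. The log2 ratio of EEF1A1P5 to EEF1A1 rose by 0.71, and the ratios of the groups did not overlap (exact permutation p = 0.1). The transcripts differ at 4 of 1389 aligned bases, and 10.4% of the 50-base stretches of EEF1A1P5 are unique. It lies outside all rows that are not pseudogenes.

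RPS2P46 (ENSG00000189343, chr17:19445970-19446852) fell from 180.0 ± 24.0 to 119 ± 3.89 CPM. Its counts of 2709, 3096 and 3705 in control lay above the 2169, 2369 and 2290 counted with HSD52_OE. On the log2 scale it fell by 0.60 ± 0.10 (edgeR adjusted p = 0.000107), while RPS2 was at −0.08 ± 0.11 (edgeR adjusted p = 0.535). AC008038.1 (ENSG00000283041, chr7:133034607-133035920), whose sequence is 99.2% identical to EEF1G, the gene for another elongation factor subunit, fell from 229 ± 6.08 to 172 ± 1.94 CPM. It had 3810, 4033 and 4225 counts in control and 3199, 3348 and 3353 in HSD52_OE libraries, with no overlap.

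The other members of the 10 moved less. RPS7P1 had 1462, 1665 and 1955 counts in control and 2187, 2369 and 2264 in HSD52_OE libraries (log2 fold change 0.30 ± 0.09, edgeR adjusted p = 0.0127). AC116533.1, identical to RPL36A over its 321 bases, was at 0.39 ± 0.12 (edgeR adjusted p = 0.0116), and its groups overlapped once scaled to CPM. Both calls were lost without control replicate 1 and without HSD52_OE replicate 2, and that of AC116533.1 also without control replicate 2, with adjusted p up to 0.0641 for RPS7P1 and 0.0719 for AC116533.1. RPL39P3 (−0.45), RPL7P1 (−0.01), ANXA2P2 (0.02) and RPS28P7 (−0.07) did not pass the test. RPL39P3 passed it under 5 alternatives (no low-count filter, DESeq2, limma-voom, without control replicate 2 and without HSD52_OE replicate 2), with adjusted p from 5.2e-06 to 0.283 over all of them. RPS28P7 passed without control replicate 1 (edgeR adjusted p = 0.0437), and RPL7P1 reached 0.23 without control replicate 3 (edgeR adjusted p = 0.0204). Among these 10, the control libraries spread more widely than the HSD52_OE libraries in 9, as the plot by library shows.

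**Figure D1:**
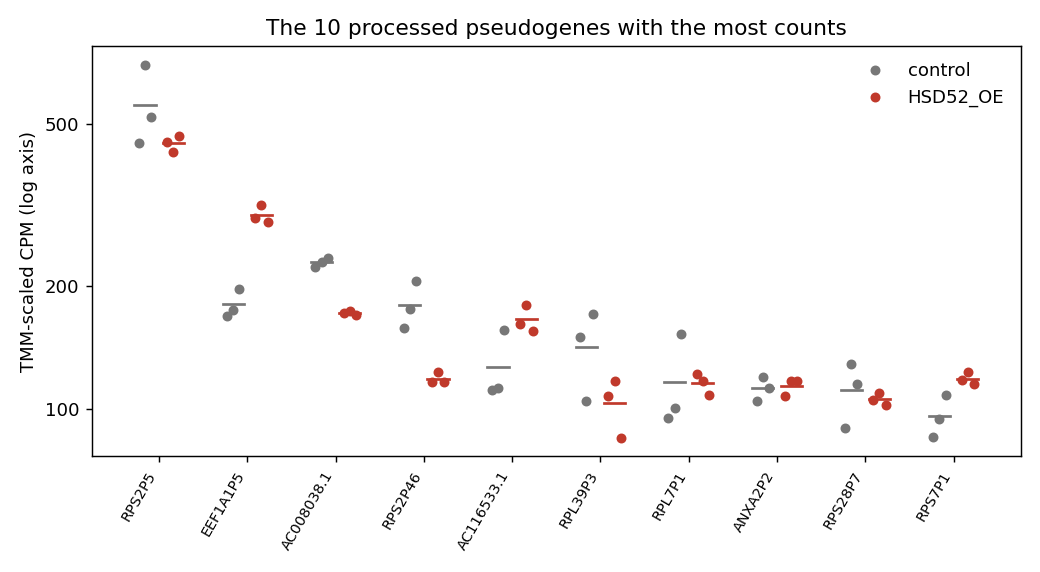
TMM-scaled CPM (log axis) of the 10 processed pseudogenes with the most counts in each control (grey) and HSD52_OE (red) library, with bars at the group means of 3 libraries. EEF1A1P5 is higher in every HSD52_OE library (mean 299 against 181 CPM), and RPS2P46 and AC008038.1 are lower in each.

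Pseudogenes with the highest fold changes were low in control, with between 0 and 19 counts in any control library. KLF2P1 (ENSG00000231240, chr2:130036958-130038422), a diverged copy of the transcription factor gene KLF2 at 74.6% identity, had no count in control and 28, 21 and 12 counts in HSD52_OE. Against a floor of 3 counts over the control group its level was 18.6-fold higher, with counting error left out. It met the count limit through HSD52_OE alone. KLF2 itself was at −0.34 ± 0.22 (edgeR adjusted p = 0.214). BNIP3P30 (ENSG00000268079, chr19:22203128-22204003) had 2, 0 and 0 counts in control and 28, 23 and 27 in HSD52_OE libraries, a ratio of 35.8 (95% interval 9.57 to 300 from counting error). It lies in an intron of ZNF676 on the opposite strand, and that zinc finger gene rose from 1.40 ± 0.49 to 6.90 ± 1.43 CPM.

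TUBB8P1 (chr9:21811621-21812347), which lies in an intron of the methylthioadenosine phosphorylase gene MTAP on the opposite strand, had 2, 3 and 0 counts in control and 27, 16 and 23 in HSD52_OE libraries. Its count ratio was 12.1 (4.93 to 38.5), MTAP was at a log2 fold change of 0.10, and the parent TUBB8 had no count in any library. HSPA8P15 (chr6:151411259-151413945), a copy of the gene for a constitutive chaperone at 68.1% identity, had 2, 4 and 1 counts in control and 20, 17 and 19 in HSD52_OE, while HSPA8 fell by 0.50 on the log2 scale. PPIAP46 (chr15:74350768-74364620), from the cyclophilin A gene PPIA, had 1, 5 and 4 against 15, 27 and 33 counts, and PPIA was at 0.05. In these 3 genes every HSD52_OE library was above every control library.

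The other 5 of the 10 highest have names without a parent symbol. Z74021.1 (chr22:32039490-32039896) had the most counts of the 10, with 8, 19 and 8 in control and 59, 77 and 98 in HSD52_OE libraries, a ratio of 6.13 (4.28 to 9.01). AC011290.2, most like TMX1, had 3, 5 and 1 against 33, 28 and 25 counts. AC005154.2, AC135279.1 and AC009533.2 had log2 fold changes between 2.81 and 3.07 and at most 5 counts in a control library. Without 1 control library, the fitted values of BNIP3P30, TUBB8P1, HSPA8P15, AC005154.2 and AC135279.1 moved by more than 1.5-fold, to 7.66 without control replicate 1 for BNIP3P30, to 4.18, 3.41 and 3.98 without control replicate 2 for TUBB8P1, HSPA8P15 and AC005154.2, and to 3.97 without control replicate 3 for AC135279.1. Each stayed past the threshold.

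All but 1 of the 4 FTH1 copies stood among the 10 lowest, next to a fall of FTH1 from 948 ± 49.6 to 388 ± 26.4 CPM. FTH1P7 had 45, 26 and 55 counts in control and 7, 9 and 16 in HSD52_OE libraries. FTH1P8 had 30, 40 and 28 against 9, 8 and 8 counts. FTH1P2 had 33, 36 and 26 in control and 12 in each HSD52_OE library. The groups did not overlap in any of the 3, which was a condition for the choice of the 10. Their log2 fold changes were −2.09 ± 0.37, −2.08 ± 0.34 and −1.52 ± 0.32, beside −1.29 ± 0.09 for FTH1. The fourth copy, FTH1P23, was at −0.95 ± 0.43 and did not pass the test (edgeR adjusted p = 0.0764). Between 51.2% and 74.3% of the 50-base stretches of these copies are unique, and FTH1 shares 62.4% of its exonic bases with exons of BEST1.

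Falls with the parent were also seen for adenylate kinase 4, a mitochondrial nucleotide kinase. AK4P3 had 29, 11 and 14 counts in control and 5, 2 and 10 in HSD52_OE libraries (log2 fold change −1.78 ± 0.54), and AK4P1 had 59, 53 and 49 against 26, 25 and 24 counts (−1.22 ± 0.24). AK4 fell from 35.1 ± 9.19 to 9.42 ± 0.48 CPM (−1.89 ± 0.16). AK4P1 has no unique 50-base stretch and AK4P3 has 24.2%. The call of AK4P3 was lost without control replicate 1 or without HSD52_OE replicate 2, with adjusted p up to 0.103, and its fitted value moved to −2.43 without HSD52_OE replicate 3.

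Copies of ribosomal protein genes were also among the 10 lowest. Because the 10 were chosen for low fold changes, a value below the parent's is partly set by that choice. RPL37AP1 (ENSG00000226243, chr20:44466564-44466842) had 18, 39 and 36 counts in control and 11, 8 and 6 in HSD52_OE libraries. Its log2 fold change was −1.998 ± 0.40 (edgeR adjusted p = 0.000653), beside −0.31 ± 0.11 for RPL37A, and 97.4% of its 50-base stretches are unique. RPS3AP47 had 17, 16 and 31 against 5, 8 and 10 counts (−1.58 ± 0.42), while RPS3A was at −0.11. AL139095.2 (ENSG00000220472, chr6:7338839-7339568), 95.6% identical to RPS3 and inside an intron of SSR1, had 156, 158 and 269 counts in control and 47, 55 and 65 in HSD52_OE. Its log2 fold change was −1.92 ± 0.21 (edgeR adjusted p = 3.55e-06), and SSR1 was at 0.14.

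The remaining lowest calls were HSPE1P2, from the mitochondrial co-chaperonin gene HSPE1 (−1.54, with HSPE1 at −0.53), AC114491.1, most like the respiratory chain gene NDUFA4 (−1.59), and AL356968.2, most like STRADB (−1.63). Each had at most 53 counts in a control library and at most 17 in an HSD52_OE library, with no overlap of the groups.

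**Figure D2:**
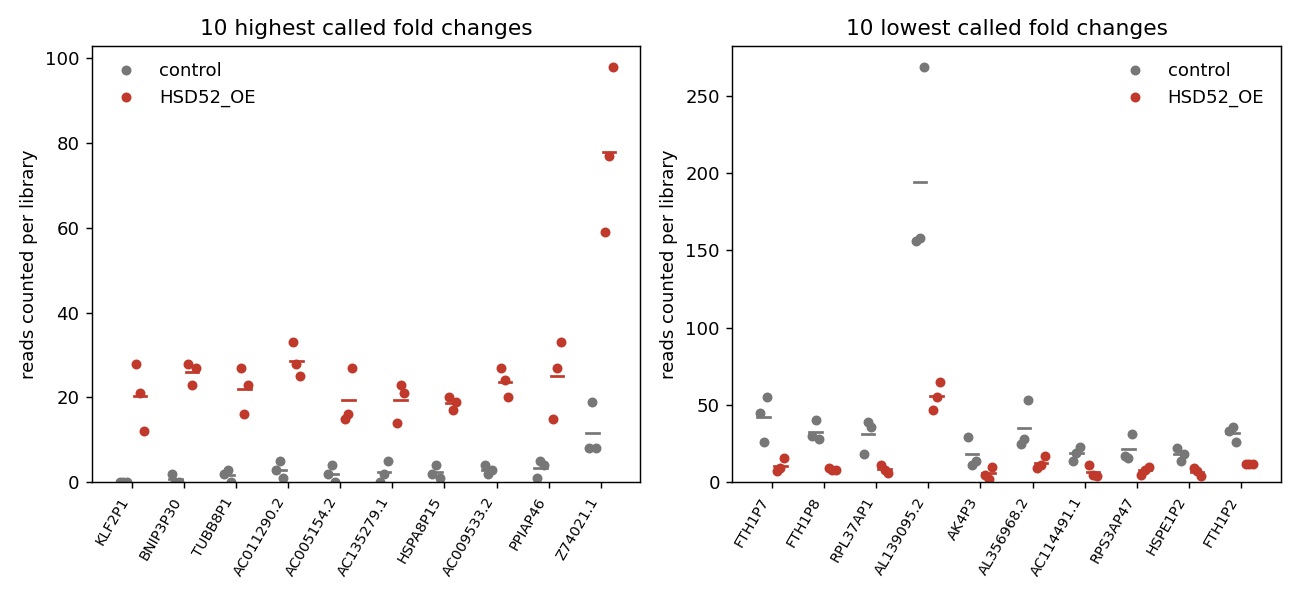
Reads counted per library (linear axes, not scaled) for the 10 highest and the 10 lowest log2 fold changes among called pseudogenes whose groups did not overlap and whose mean reached 0.5 CPM, with bars at group means. Control libraries hold at most 19 counts for the highest 10, and among the lowest 10 AL139095.2 has the most, between 156 and 269 in control.

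For transcribed processed pseudogenes the annotation records evidence of a transcript. In this class 23 of the 77 tested were higher (29.9%) and 8 lower (10.4%), and the median log2 fold change was 0.23. In the other class 62 of 398 were higher (15.6%) and 78 lower (19.6%), at a median of −0.11. Median levels were 1.87 CPM in the transcribed class and 2.07 CPM in the other. Of all genes between 1 and 5 CPM, 35.2% were higher and 11.4% lower, and of all genes tested 25.0% and 25.6%. Both median levels lie in that band, and the shares of the transcribed class are nearer to those of the band than the shares of the other class. The difference between the classes was not tested. NAP1L6, an intronless member of the nucleosome assembly family on the X chromosome, had 27, 21 and 27 counts in control and 65, 71 and 81 in HSD52_OE (1.40 ± 0.23, edgeR adjusted p = 0.00013). PHACTR2P1, which overlaps an exon of INPP5F on the opposite strand, had 2, 15 and 10 against 43, 63 and 35 counts, and its parent PHACTR2 rose by 0.40 on the log2 scale.

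In the same class, RPL6P27 fell with 1204, 1134 and 1251 counts in control and 844, 910 and 949 in HSD52_OE (−0.54 ± 0.08, edgeR adjusted p = 8.4e-05), while its parent RPL6 was at 0.10. ZNRF2P1 (−0.78) fell as its parent ZNRF2 did (−0.76), and GTF2IP4 (−0.33) as GTF2I did (−0.26). H2AFVP1, from a histone variant gene, was at −1.21 ± 0.34, with H2AFV at −0.11. The call of GTF2IP4 was lost with library totals alone and without HSD52_OE replicate 2, and that of H2AFVP1 without control replicate 3, with adjusted p up to 0.0967 and 0.0592.

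By position, of the 486, 219 overlap no row other than pseudogenes, 196 lie in introns and 71 overlap an exon. Among those tested, 30 of 214 without an overlap rose and 40 fell (median −0.16), 34 of 190 in introns rose and 37 fell (median −0.07), and 21 of 71 over an exon rose and 9 fell (median 0.26). Both rises and falls were found in each position. Without an overlap 14.0% rose and 18.7% fell, in introns 17.9% and 19.5%, and over an exon 29.6% and 12.7%. Median levels were 2.04, 2.05 and 1.77 CPM in that order, and of all genes between 1 and 5 CPM 35.2% were higher and 11.4% lower. The median share of unique stretches also differed, at 59.1%, 55.3% and 79.6%, and the part of position was not tested. Reads from a pseudogene and from a gene that overlaps it on the opposite strand cannot be told apart without a strand setting. Such a setting would not separate overlaps on the same strand.

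For 110 pseudogenes both the overlapping gene and the parent were tested, and the fold change was nearer to that of the overlapping gene in 47 and nearer to that of the parent in 63. CPSF1P1 (chr22:32269381-32273110), a copy of a cleavage and polyadenylation factor gene, lies over an exon of SLC5A4-AS1 on the same strand. It had 59, 25 and 25 counts in control and 152, 139 and 177 in HSD52_OE (1.97 ± 0.26), SLC5A4-AS1 rose by 1.69 and CPSF1 fell by 0.62 on the log2 scale. Across 15 pseudogenes over an exon on the same strand, Pearson's r between the 2 fold changes was 0.46, and across 54 in introns on the same strand it was −0.09. On the opposite strand it was 0.21 over exons (30 pseudogenes) and 0.19 in introns (84). Spearman's rho over exons was 0.25 on the same strand and 0.23 on the opposite strand. These points share libraries and, over exons, may share reads, so the values are a description.

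Calls were also counted by the share of unique sequence. Of 153 tested pseudogenes with more than 75% unique stretches, 56 rose (36.6%) and 16 fell (10.5%), and their median was 0.37 on the log2 scale. With 50% to 75% unique, 15 of 128 rose and 22 fell, with 25% to 50% unique 6 of 104 rose and 25 fell, and with up to 25% unique 8 of 90 rose and 23 fell. The median was −0.19 in each of these 3 groups. The groups also differ in level: the median was 1.11 CPM for the most unique and 5.97 CPM for the least unique.

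The level was therefore held within bands. Under 1 CPM, 28 of 68 pseudogenes with more than 75% unique stretches rose (41.2%) and 1 fell. Among the 1756 genes of all kinds in that band, 39.2% were higher and 4.16% lower. Of 70 pseudogenes with 75% or less unique, 9 rose (12.9%) and 7 fell. Between 1 and 5 CPM, 21 of 64 of the more unique rose (32.8%) and 10 fell (15.6%), against a background of 35.2% and 11.4%, while of 133 less unique ones 8 rose (6.02%) and 22 fell (16.5%). At 5 CPM or more, 7 of 21 of the more unique rose (33.3%) and 5 fell, against 20.2% higher and 32.6% lower among all genes, and of 119 less unique ones 12 rose (10.1%) and 41 fell (34.5%). In the 2 lower bands the shares of the more unique pseudogenes lay near those of all genes of that level, and the less unique ones rose in a smaller share. These are counts beside a background, with no test of the difference.

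**Figure D3:**
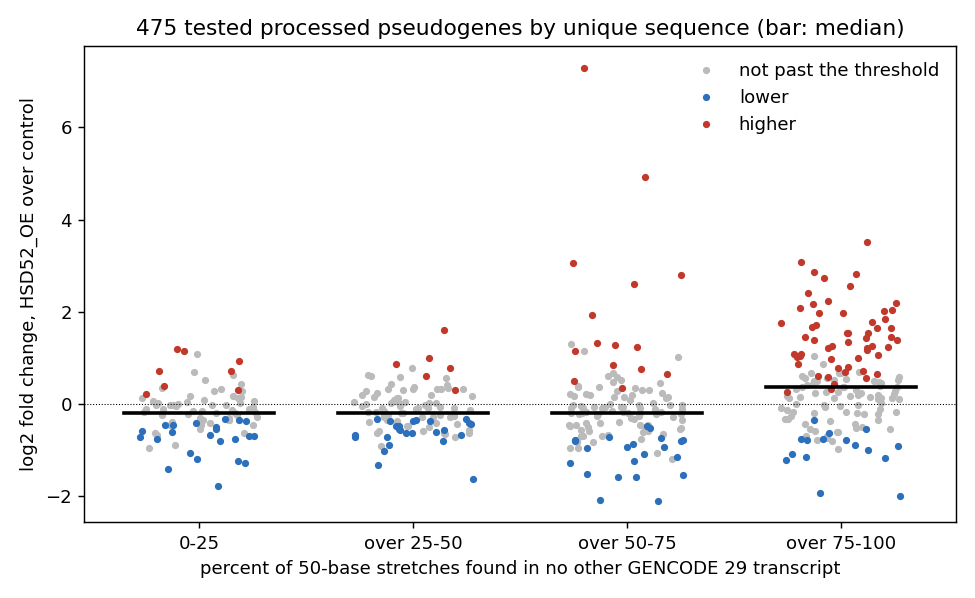
Log2 fold change (HSD52_OE over control) of the 475 tested processed pseudogenes by the percent of their 50-base stretches that no other GENCODE 29 transcript contains, with black bars at the medians. Red points are higher and blue points lower at an adjusted p under 0.05; the median is 0.37 above 75% unique and −0.19 in each of the other bands.

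Each pseudogene was then set beside its parent. In 283 pairs both were tested, and the pseudogene's log2 fold change was above the parent's in 136 and below it in 147, with a median difference of −0.02. Both rose in 4 pairs and both fell in 24. In 9 pairs the pseudogene rose and the parent fell, in 2 the reverse, in 49 the pseudogene alone passed the test, in 82 the parent alone and in 113 neither. Of the 215 parents tested, 28 were higher (13.0%) and 70 lower (32.6%), and their median log2 fold change was −0.12, beside 20.2% higher and 32.6% lower among all genes at 5 CPM or more. Per kilobase, the pseudogenes stood at a median of 7.52% of their parents' level over 294 pairs, 46 were under 1% and 32 were above their parent.

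The pairs were also grouped by shared sequence. Pearson's r between pseudogene and parent was 0.56 over 100 pairs in which the parent holds more than 50% of the pseudogene's 50-base stretches, 0.36 over 85 pairs with 20% to 50%, −0.12 over 63 pairs with up to 20%, and 0.05 over 35 pairs that share none. Among pairs with the pseudogene at 1 CPM or more and without the FTH1 and AK4 pairs, these values were 0.37 over 90 pairs, 0.13 over 60, −0.05 over 37 and 0.10 over 15. All points share the same 6 libraries, and some pairs share a parent. In the 35 pairs with no shared stretch, 15 pseudogenes rose and none fell, and 30 were above their parent. Their median level was 0.98 CPM. Of all genes tested under 1 CPM, whether or not they met the count limit, 39.2% were higher and 4.16% lower. In the 100 with more than 50% shared, 4 rose and 22 fell. Their median level was 5.38 CPM, and of all genes at 5 CPM or more 20.2% were higher and 32.6% lower. The groups thus differ in level as well as in shared sequence, and the part of each was not tested.

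**Figure D4:**
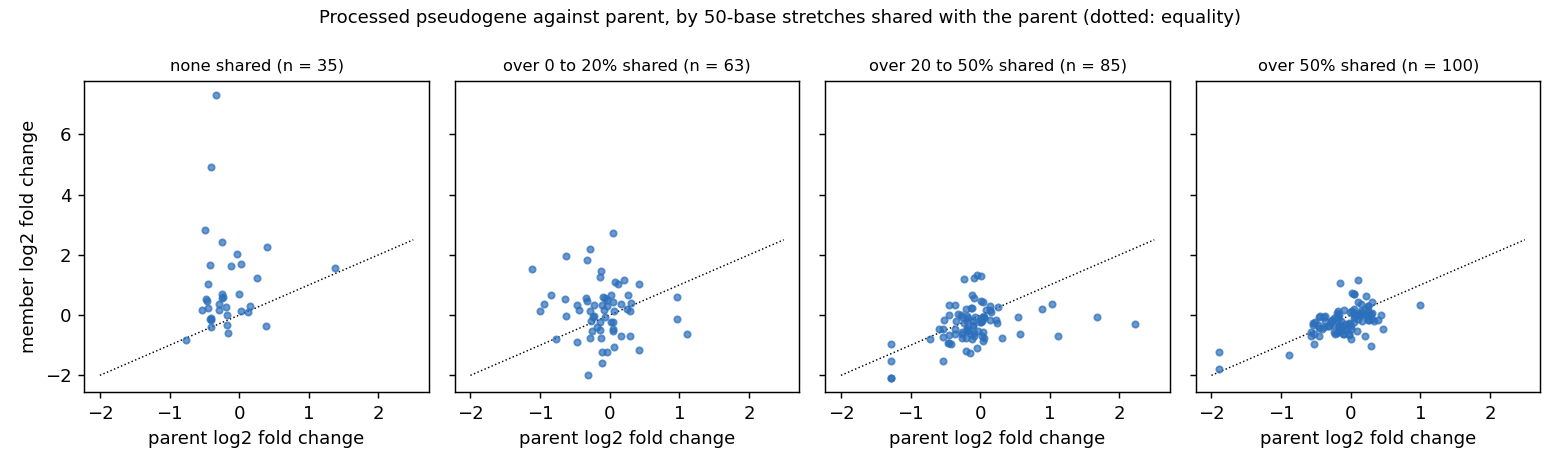
Log2 fold change of each pseudogene (vertical axis) against that of its parent (horizontal axis) in 283 pairs, in panels by the percent of the pseudogene's 50-base stretches that the parent also holds, with a dotted line of equality. Points lie closer to the line in the panel over 50% (100 pairs, r = 0.56) than in the panel with none shared (35 pairs, r = 0.05).

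The pairs with the largest differences, among pseudogenes of at least 1 CPM, were of several kinds. RPL18P13 had 17, 12 and 11 counts in control and 53, 45 and 60 in HSD52_OE (1.85 ± 0.29, edgeR adjusted p = 9.05e-05), while RPL18 fell by 0.32 on the log2 scale. TATDN2P2, a copy of a nuclease gene, had 36, 29 and 35 against 126, 104 and 116 counts (1.66 ± 0.20, edgeR adjusted p = 7.33e-06), and TATDN2 fell by 0.42. The value of TATDN2 is uncertain, because 52.5% of its exonic bases are shared with AC022384.1. DUSP8P5 was at 0.66 and its parent, the dual specificity phosphatase gene DUSP8, fell by 0.84. RPSAP52 was at 1.02 with RPSA down by 0.44. The call of DUSP8P5 was lost under 7 alternatives, among them leaving out any library but control replicate 3, with adjusted p up to 0.087. The call of RPSAP52 was lost without control replicate 3, HSD52_OE replicate 1 or HSD52_OE replicate 2, with adjusted p up to 0.131.

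Pairs with the pseudogene far below its parent included 2 parents whose rows are themselves low. EIF4A1, a translation initiation helicase gene, stood at 4.09 ± 1.07 CPM in control and 19.2 ± 1.54 CPM in HSD52_OE, and 48.6% of its exonic bases are shared with other rows. EIF4A1P10 had 261, 234 and 259 counts in control and 221, 217 and 239 in HSD52_OE (−0.28 ± 0.12, edgeR adjusted p = 0.0571). RPS10 had 1.12 ± 0.07 and 2.43 ± 0.61 CPM, with 39.4% of its exonic bases shared with RPS10-NUDT3. Its copies RPS10P7 (−0.63, past the threshold) and RPS10P3 (−0.68, not past it) were both above RPS10 per kilobase. These parents' values are uncertain because of the overlapping rows. NOC2LP1 (−1.24) and RPS23P8 (−1.01) also stood below parents that did not pass the test, NOC2L at −0.03 and RPS23 at 0.29, and both calls were lost without HSD52_OE replicate 1 or 3, that of NOC2LP1 also without control replicate 2 and that of RPS23P8 without control replicate 1 or 3, with library totals alone and with DESeq2, with adjusted p up to 0.147 and 0.132. The call of RPS10P7 was lost without control replicate 1 or HSD52_OE replicate 1 or 2, with adjusted p up to 0.082. In turn RPS10P3 passed without control replicate 1 and EIF4A1P10 without control replicate 2.

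Grouped by the role of the parent, copies of cytosolic ribosomal protein genes were the most numerous, with 73 pseudogenes from 42 parents. Of the 71 tested, 5 rose (7.04%) and 22 fell (30.99%), at a median of −0.33 on the log2 scale. Their median level was 5.08 CPM, so the copies lie on both sides of 5 CPM. Of all genes at 5 CPM or more 20.2% were higher and 32.6% lower. Between 1 and 5 CPM the shares were 35.2% and 11.4%, and under 1 CPM 39.2% and 4.16%. The share of copies that fell lies inside the range of these bands, and the share that rose is below each of them. Neither difference was tested. Among the 42 parents 4 were higher and 9 lower, with a median of −0.10. The pseudogene stood below its parent in 41 of 71 pairs. RPL13P12 had 1079, 1443 and 1323 counts in control and 712, 699 and 783 in HSD52_OE (−0.93 ± 0.10, edgeR adjusted p = 2.77e-06), and RPL13 was at −0.46. Other copies that fell were RPL10AP6 (−1.09), RPL17P50 (−1.17) and RPL14P1 (−0.80), and RPS26P6 (1.16) and RPL21P75 (0.72) rose. As a share of counts, these 73 took 0.188% to 0.247% in control and 0.204% to 0.206% in HSD52_OE libraries, so the groups overlapped (exact permutation p = 0.4).

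The counts in other housekeeping roles were small. Among all genes 25.0% were higher and 25.6% lower, and these shares differ with level. Under 1 CPM they were 39.2% and 4.16%, and between 1 and 5 CPM 35.2% and 11.4%. At 5 CPM or more they were 20.2% and 32.6%. Median levels were 9.79 CPM for copies of translation factor genes and 2.68 CPM for RNA-binding and splicing genes. For chromatin and nuclear genes the median was 2.01 CPM, and for ubiquitin, SUMO and proteasome genes 1.39 CPM. Of 16 pseudogenes of translation factor genes 1 rose (EEF1A1P5) and 5 fell, among them EIF5AP4 (−0.76) and EIF4HP1 (−0.62). Of 19 copies of RNA-binding and splicing genes 1 rose (HNRNPCP7, 1.26) and 5 fell, among them YBX1P1 (−0.73) and SNRPGP15 (−0.77). Of 19 copies of chromatin and nuclear genes none rose and 3 fell, namely H2AFVP1, RANP1 (−0.80) and H3F3AP4 (−0.32). Of 9 copies of ubiquitin, SUMO and proteasome genes none rose and 2 fell, UBQLN4P1 (−1.32) and UBE2SP1 (−0.68), each together with its parent.

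The same shares by level stand beside the remaining roles. Median levels were 3.38 CPM for copies of glycolysis genes, 3.71 CPM for cytoskeletal and 1.06 CPM for chaperone and cyclophilin genes. For mitochondrial genes the median was 0.84 CPM, and for genes outside the lists 1.43 CPM. Of 6 copies of glycolysis genes 2 rose and none fell, at a median log2 fold change of 0.50, beside −0.10 for the 2 parents. GAPDHP32 had 5 counts in each control library and 38, 20 and 31 in HSD52_OE (2.42 ± 0.41, edgeR adjusted p = 0.000191), while GAPDH was at −0.25. Of 9 copies of cytoskeletal genes 3 rose and 1 fell. ACTG1P20 rose (3, 12 and 5 against 20, 21 and 23 counts) as the gamma actin gene ACTG1 fell by 1.12, and TMSB4XP8, from the thymosin beta 4 gene, fell (154, 117 and 132 against 66, 70 and 46 counts). Of 11 copies of chaperone and cyclophilin genes 3 rose and 3 fell. Of 10 copies of mitochondrial genes 2 rose, PHBP9 (2.19) and MRPL45P1 (1.45), and none fell. Of 115 tested copies of genes outside these lists 21 rose and 9 fell.

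**Figure D5:**
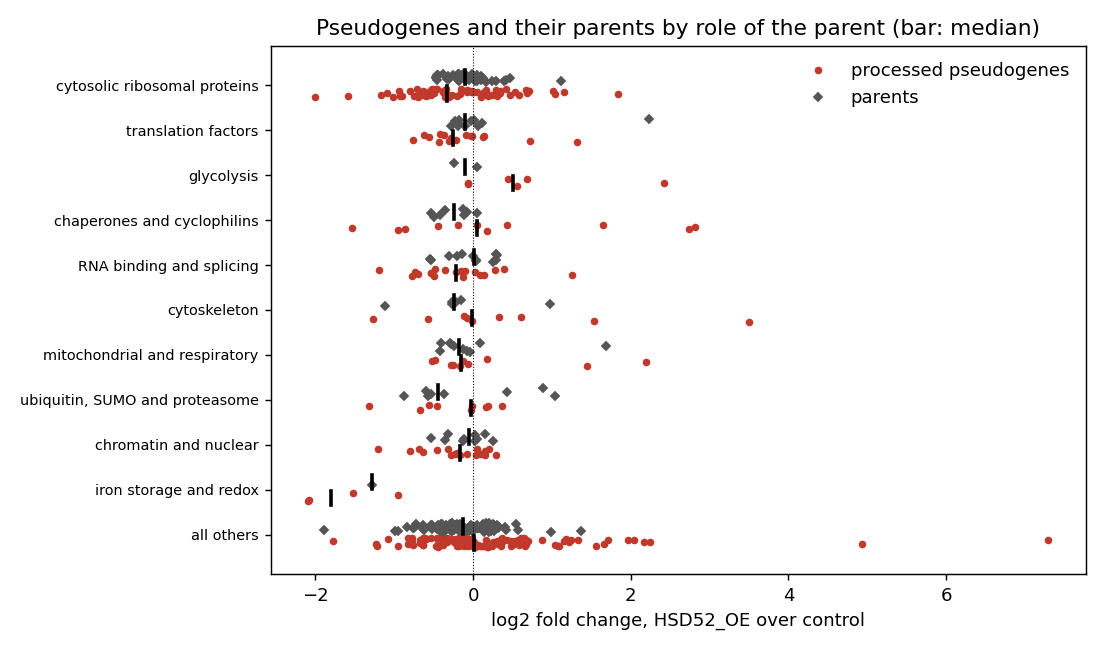
Log2 fold change (HSD52_OE over control) of processed pseudogenes (red circles) and of their parents (grey diamonds) by role of the parent, with vertical bars at the medians. Copies of ribosomal protein genes have a median of −0.33 against −0.10 for their parents, and the 4 copies of FTH1 lie on the negative side together with FTH1.

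Copies of one parent were set beside each other by their fitted values, and differences between copies were not tested. In all, 20 parents had 3 or more of these pseudogenes, 70 in all, and 19 had at least 3 tested. In 3 of the 19 families, RPSA, PPIA and HNRNPC, copies passed the test in both directions, and in 9 no copy passed. The 7 copies of RPSA, the gene for a ribosomal protein also known as a laminin receptor, ranged from −0.92 (RPSAP12) over −0.01 (RPSAP15) to 1.02 (RPSAP52), with RPSA at −0.44. RPSAP15 had 1139, 1606 and 1598 counts in control and 1478, 1512 and 1701 in HSD52_OE, and the groups overlapped. RPSAP52, which overlaps an exon of HMGA2 on the opposite strand, had 17, 20 and 9 against 32, 44 and 26 counts. RPSAP12 had 14, 23 and 26 against 9, 15 and 12 counts, which did not overlap once scaled to CPM. Its call was lost under 10 of the alternatives, among them leaving out any library but control replicate 1 (edgeR adjusted p up to 0.163).

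The 5 copies of PPIA ranged from −0.86 (PPIAP31) over 0.06 (PPIAP22) to 2.73 (PPIAP46). PPIAP31 had 24 counts in each control library and 14, 12 and 17 in HSD52_OE, and its call was lost under 10 of the alternatives, among them leaving out any 1 library (edgeR adjusted p up to 0.133). PPIAP22 had 208, 201 and 220 against 205, 264 and 245 counts, and the groups overlapped. The unique share was 11.1% in PPIAP22, 52.5% in PPIAP31 and 89.99% in PPIAP46. The 4 copies of HMGB1, from 0.06 to 0.29, and the 3 of RPL7, from −0.16 to 0.14, showed the least spread among the 19 families, and none passed the test.

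Genes that act on LINE-1 retrotransposition and on RNA decay were read from 2 lists. Of 22 tested genes that restrict or silence LINE-1, 4 were higher and 10 lower, with a median of −0.16. All but 1 of them lie at 5 CPM or more, where 20.2% of all genes were higher and 32.6% lower. The heterochromatin cofactor gene TRIM28 fell from 698 ± 99.0 to 445 ± 8.08 CPM, the RNA helicase gene MOV10 fell by 0.60 on the log2 scale, and the cytidine deaminase gene APOBEC3G rose from 11.1 ± 1.20 to 21.5 ± 1.10 CPM. Of 18 genes of nonsense-mediated and cytoplasmic decay, 2 were higher and 8 lower, with a median of −0.22, against the same 20.2% and 32.6% of all genes at their level. UPF1, the central helicase of nonsense-mediated decay, fell from 190 ± 28.3 to 103 ± 6.04 CPM, and UPF3A rose by 0.37 on the log2 scale.

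At the count limit itself, the 3 pseudogenes just inside it were PARP1P1 (1, 1 and 3 counts in control, 34, 15 and 6 in HSD52_OE), EEF1A1P19 (4, 2 and 10 against 9, 12 and 23) and RPLP1P6 (4, 4 and 3 against 9, 16 and 25). The 3 rows just outside it were AK3P3 (6, 3 and 9 against 16, 15 and 10), NPM1P9 (13, 12 and 6 against 11, 8 and 9) and DFFBP1 (2, 3 and 3 against 18, 21 and 12). With a limit of 120 summed counts, 46 pseudogenes were higher and 74 lower.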

How the data were processed

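Gene counts of 3 HSD52_OE and 3 control LN229 libraries were analysed. The authors deposited raw counts per gene, made with CASAVA, HISAT2 2.0.5 and featureCounts 1.5.0-p3 on hg38, per the submitters' processing notes. Strand setting and handling of reads with several alignments are not stated in the sources used. No library was left out.

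The pseudogenes, their parents and the gene lists were chosen with earlier results of these data known. From the counts, edgeR 4.0.16 (R 4.3.3; TMM scaling, filterByExpr, robust quasi-likelihood test) compared the groups over 16322 genes, with Benjamini-Hochberg adjustment and a threshold of 0.05. Library totals of 17777157 to 18917790 counts make a pseudogene of 1 CPM rest on about 17.1 to 19.7 counts per library. CPM values are TMM-scaled, errors are SD over 3 libraries for levels and SE for fold changes, and intervals of count ratios (95%) cover counting error only. Shares and log2 ratios were compared by an exact 2-sided permutation test, whose smallest p is 0.1. Only the edgeR fit was tested on simulated counts, in which far fewer genes changed than were called here.

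Gene models of 58724 of the 58735 rows had the start and end of GENCODE 29 (Ensembl 94). Transcript sequences came from that release, and pseudogenes were matched to coding transcripts with BLAST+ 2.17.0 (e-value 1e-10). A stretch of 50 bases was unique where no other GENCODE transcript held it on either strand. Some sequences and matches are not reported here.

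The pseudogenes named were the 10 with the most counts, the 10 highest and 10 lowest fold changes past the threshold (mean of 0.5 CPM or more, no overlap of the groups), the 4 transcribed ones with the smallest p in each direction, the highest, middle and lowest copy of parents with 5 or more copies, the 6 pairs with the largest difference in each direction, and the 3 on each side of the count limit. Other pseudogenes were named as examples after their values were seen. Alternatives covered scaling, filters, the replicate block, DESeq2 1.42.0, limma-voom (limma 3.58.1), leaving out each library and other choices of pseudogenes or parents.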

Additional observations from a re-analysis of the deposited data

How the results depend on the processing

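Of the 171 calls (85 higher, 86 lower), 69 were made in every one of the refits. Scaling by library totals alone gave 101 higher and 54 lower and moved the median log2 fold change to 0.052. Leaving out each library in turn gave 57 to 79 higher and 56 to 89 lower, a median of −0.105 to −0.046, 132 to 143 pairs with the pseudogene above its parent, and a difference in share of counts of −0.0193 to 0.0309 percentage points. The median was −0.11 without a low-count filter and −0.11 without the transcribed class. With 120 or more summed counts, 46 were higher, the median was −0.16 and 76 of 195 pairs had the pseudogene above its parent. Pseudogenes that overlap no other row gave 26 higher, 35 lower, a median of −0.16 and 49 of 115 pairs. These subsets hold fewer genes. Those with over 75% unique stretches, an alternative chosen after seeing the data, gave 56 higher, 16 lower, a median of 0.37 and 56 of 77 pairs, and taking the parent by best sequence match, also chosen then, gave 222 of 449 pairs. RPL7P1 (−0.01) moved to 0.23 without control replicate 3 and to −0.15 without control replicate 1, and the cause was not tested. With the replicate number as a block, 86 were higher and 93 lower; same-numbered libraries correlated at 0.0383, 0.0307 and 0.0328, so the numbers were not taken to pair the libraries, although each library correlated best with its own number. DESeq2 called 69 higher and 76 lower, limma-voom 89 and 87. Of the values of 51 named pseudogenes under alternatives, 560 kept sign and side of the threshold, 52 lost a call and 17 gained one. The sign changed in 19 values of 5 pseudogenes whose reported log2 fold change was at most 0.07 in size (RPSAP15, RPL7P1, ANXA2P2, RPS28P7 and PPIAP22); 1 of these values, that of RPL7P1 above, passed the threshold. Near-identical copies and low counts limit what these libraries can separate.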
